A study of Homo sapiens with 6 samples.

Results

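CDKN1A, MDM2, CCNG1, BBC3, BAX, GDF15, SESN1, FAS and TP53I3 are well-known transcriptional targets of the tumour suppressor p53. They were taken by gene symbol from a table of 20494 genes, and all 9 were found there. The cells were PA-1, a human ovarian teratocarcinoma line. The design was 1 library for each of 6 conditions: an empty pCDNA3.1 plasmid (called Vector), plasmids for the receptor-interacting protein kinases RIPK1, RIPK2, RIPK3 and RIPK4 (8 µg and 48 h for these 5), and the ligand Wnt3a (200 ng, 16 h). Whether a plasmid was also given with Wnt3a is not stated in the labels. RNA abundance was given as RPKM, reads scaled to gene length and library depth. Without replicates there is no SD and no p-value, and every difference below is one between 2 libraries.

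The protein p53 is a DNA-binding activator that is kept scarce by MDM2, a ubiquitin ligase whose own gene it turns on. After DNA damage or other stress the protein accumulates and raises genes for cell-cycle arrest, for the mitochondrial and receptor routes of apoptosis, for redox control and for its own shutdown. Several of the 9 genes also answer to other regulators, among them CDKN1A to TGF-beta signalling and GDF15 to the integrated stress response.

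The p53 consensus element was taken here in its form of 2 abutting decamers, 20 bases in all. The promoter windows of the 9 genes were searched for it to show what such a site looks like near these genes. RefSeq (GRCh38.p14) supplied 17 windows of 300 bases for the 9 genes, and all 9 matched by symbol. An element with at most 3 mismatches over its 20 bases, on either strand, occurred in the windows of 4 genes. The same letters occurred in 5.2% of all 35116 windows at 3 mismatches and in 0.649% at 2. Capitals mark the 20-base match and lower case its flanks.
MDM2, first match, 2 mismatches: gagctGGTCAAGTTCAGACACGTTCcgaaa
MDM2, next match, 3 mismatches: aaaggAGTTAAGTCCTGACTTGTCTccagc
FAS, 2 mismatches: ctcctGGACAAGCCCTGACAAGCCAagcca
SESN1, 3 mismatches: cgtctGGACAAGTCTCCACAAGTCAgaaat
GDF15, 3 mismatches: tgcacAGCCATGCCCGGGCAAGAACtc
The MDM2 stretches lie at chr12:68808918-68808947 and chr12:68808956-68808985 on the plus strand, with the matches at bases -94 to -75 and -56 to -37 from a RefSeq start site inside the gene. In GENCODE 29 they are intronic: 7 MDM2 transcripts span them and 0 have an exon there. The FAS stretch is at chr10:88991304-88991333 on the plus strand, within 13 annotated transcripts, of which 2 have an exon touching the match. The SESN1 stretch is at chr6:109009013-109009042 on the minus strand, where 2 transcripts span the match and 0 have an exon. The GDF15 stretch is at chr19:18386181-18386207 on the plus strand, in an exon of 3 transcripts, and its match covers bases 28 to 47 after the start. In the windows of CDKN1A, CCNG1, BBC3 and TP53I3 the closest stretch had 5 or 6 mismatches, and in that of BAX it had 4. The search could not find decamers set apart by other bases, or elements outside the windows. It therefore does not show that a gene lacks an element. A match is a string of letters and not evidence of binding in these cells.

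Averaged over the libraries, all 9 genes reached 1 RPKM, as did 11881 genes of the table. Their means ran from 2.54 RPKM for FAS to 114 RPKM for CCNG1, with BAX at 95.7, TP53I3 at 31.9, MDM2 at 24.6, SESN1 at 22.2, CDKN1A at 17.2, GDF15 at 15 and BBC3 at 8.32. Library totals, recovered from the RPKM values, lay between 17.2 M and 19.5 M reads. Each transfected kinase was highest in the library that bears its name, but by unlike margins: RIPK1 stood at 16.6 RPKM against 12.8 in Vector, RIPK2 at 27.4 against 11.8, and RIPK3 at 61.4 and RIPK4 at 17.9 against values listed at 0. Of 10 embryonal markers of PA-1, 8 averaged 1 RPKM or more and TDGF1 was listed at 0 throughout. They summed to 388 RPKM with RIPK2, 428 with RIPK3, 491 with Wnt3a, 571 with RIPK4 and 681 with RIPK1, against 623 in Vector. Of 8 fibroblast markers 4 averaged 1 RPKM or more (DCN was at 0). They summed to 246 RPKM with RIPK2, 256 with RIPK3, 209 with Wnt3a, 203 with RIPK4 and 124 with RIPK1, against 145 in Vector. The epithelial list (2 of 6) ran from 180 with RIPK1 to 320 with RIPK3, the endothelial list (5 of 7) from 51.2 to 73.2, the trophoblast list (2 of 9, CGA and KRT7 at 0) from 10.4 to 15.3, and the haematopoietic list (1 of 8, HBB at 0) from 2.10 to 6.04. Several of these sums move with the RIPK2 and RIPK3 libraries, though not with those alone, as some of the 9 genes do. Their part was not tested, and in bulk RNA more cells of a type cannot be told apart from more RNA per cell. In each ratio below, the range in brackets is the 95% interval (Clopper-Pearson) that the read counts allow. It covers counting error only and says nothing of how far 2 cultures of 1 condition would differ.

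**Figure D1:**
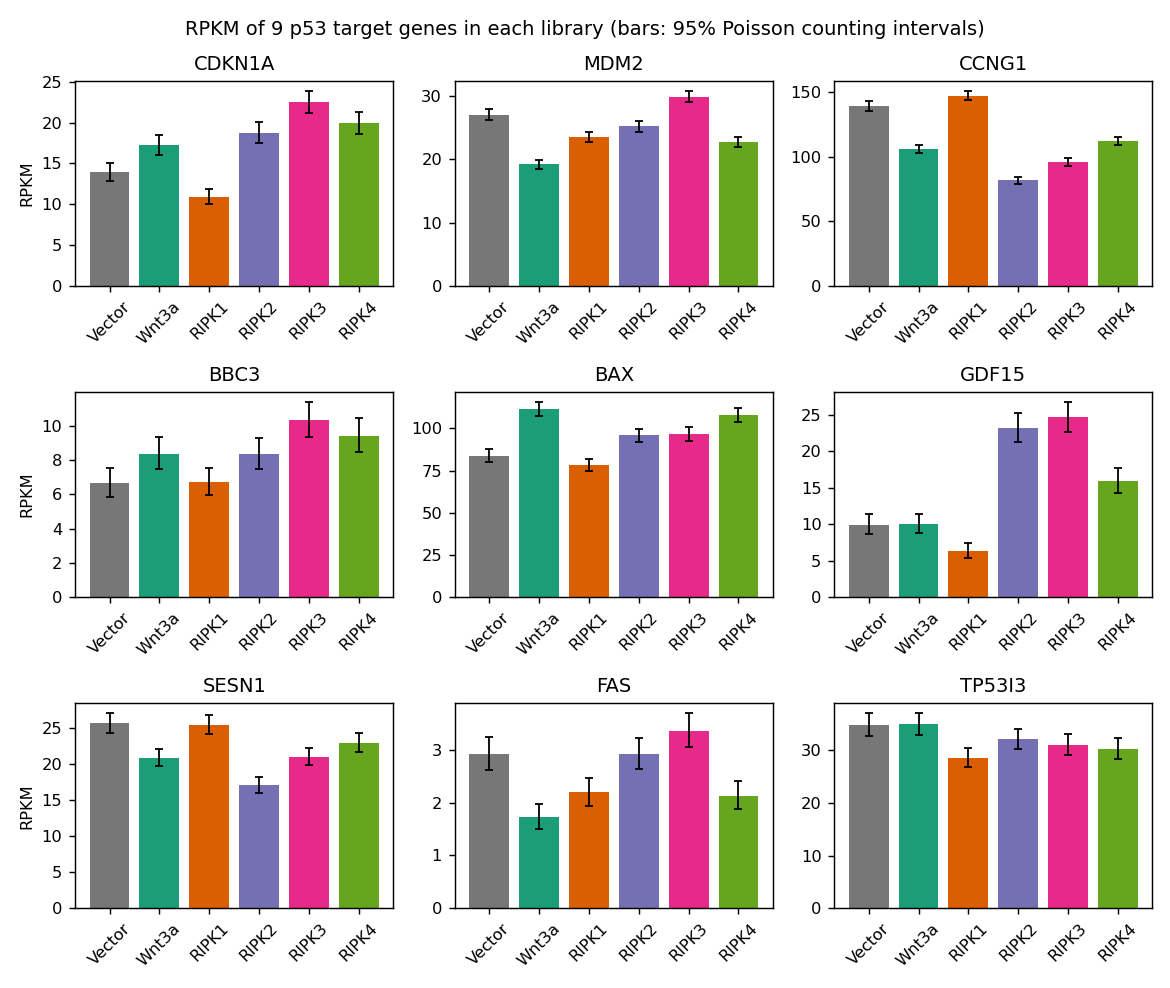
RPKM of each of the 9 genes (vertical axis, from 0, on its own scale) in the 6 libraries (columns, with 95% Poisson counting intervals as error bars). GDF15 spans the widest range, from 6.36 RPKM with RIPK1 to 24.6 with RIPK3, and TP53I3 the narrowest, from 28.5 to 34.8.

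CDKN1A encodes p21, the cyclin-dependent kinase inhibitor that carries out p53-dependent arrest. It stood at 13.9 RPKM in Vector, 17.3 with Wnt3a, 10.9 with RIPK1, 18.8 with RIPK2, 22.5 with RIPK3 and 19.9 with RIPK4. RIPK1 was thus lowest and RIPK3 highest, with 2.05-fold between them (1.85 to 2.29). Against Vector, CDKN1A was 1.62-fold higher with RIPK3 (1.46 to 1.79), 1.43-fold with RIPK4 (1.29 to 1.59) and 1.35-fold with RIPK2 (1.21 to 1.5). RIPK4, RIPK2 and Wnt3a followed each other within counting error, whereas RIPK3 stood 1.13-fold above RIPK4 (1.03 to 1.24).

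CCNG1 encodes cyclin G1, a p53 target that recruits a phosphatase to MDM2. Its levels were 138.84 RPKM in Vector, 105.66 with Wnt3a, 147.12 with RIPK1, 81.6 with RIPK2, 95.8 with RIPK3 and 112.02 with RIPK4. RIPK1 was highest and RIPK2 lowest. Compared with Vector, CCNG1 was 1.70-fold lower with RIPK2 (1.63 to 1.78) and 1.45-fold lower with RIPK3 (1.39 to 1.51). With 3326 to 6063 reads in a library, all 5 steps between neighbours in this order exceeded counting error.

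MDM2 stood at 27.0 RPKM in Vector, 19.2 with Wnt3a, 23.5 with RIPK1, 25.2 with RIPK2, 29.9 with RIPK3 and 22.7 with RIPK4. RIPK3 was the 1 library above Vector, by 1.11-fold (1.06 to 1.16), and Wnt3a was lowest, 1.41-fold below Vector (1.34 to 1.48). In GENCODE 29, 5.9% of the exon bases of MDM2 are shared with an antisense gene, as are 7.1% of those of SESN1, and 4.8% of those of CDKN1A lie opposite the RNA DINOL. No source used here says whether counting used strand, so that part of their reads is uncertain.

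The pro-apoptotic members of the BCL2 family among these genes are BBC3 (PUMA), which neutralises anti-apoptotic BCL2 proteins, and BAX, which permeabilises the outer mitochondrial membrane. BBC3 stood at 6.67 RPKM in Vector, 8.38 with Wnt3a, 6.73 with RIPK1, 8.37 with RIPK2, 10.4 with RIPK3 and 9.43 with RIPK4. It was highest with RIPK3, 1.55-fold above Vector (1.32 to 1.83), while RIPK1 and Vector lay within counting error of each other. BAX stood at 83.8 RPKM in Vector, 111.38 with Wnt3a, 78.4 with RIPK1, 95.9 with RIPK2, 96.7 with RIPK3 and 108.1 with RIPK4. Wnt3a and RIPK4 were the high libraries for BAX, 1.33-fold (1.251 to 1.412) and 1.29-fold (1.21 to 1.37) above Vector, and did not differ from each other beyond counting error.

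FAS encodes the death receptor at the cell surface and had the lowest levels of the 9 genes. It stood at 2.92 RPKM in Vector, 1.72 with Wnt3a, 2.19 with RIPK1, 2.91 with RIPK2, 3.36 with RIPK3 and 2.13 with RIPK4. Vector, RIPK2 and RIPK3 formed the upper group and RIPK1, RIPK4 and Wnt3a the lower, with 1.33-fold between RIPK2 and RIPK1 (1.14 to 1.56). Against Vector, FAS was 1.70-fold lower with Wnt3a (1.43 to 2.03). It had 213 to 429 reads a library, and 8.9% of its exon bases lie opposite those of ACTA2, which makes that part of its level uncertain. The ligand gene FASLG was listed at 0 in 4 libraries and at 0.0291 RPKM or less in the others.

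SESN1 encodes sestrin 1, a stress-induced inhibitor of mTORC1 signalling, and TP53I3 a quinone oxidoreductase linked to reactive oxygen. SESN1 stood at 25.6 RPKM in Vector, 20.9 with Wnt3a, 25.4 with RIPK1, 17.1 with RIPK2, 21.004 with RIPK3 and 22.95 with RIPK4. Vector and RIPK1 were the high pair and RIPK2 the low library, 1.499-fold below Vector (1.38 to 1.63). TP53I3 stood at 34.8 RPKM in Vector, 34.8 with Wnt3a, 28.5 with RIPK1, 32.03 with RIPK2, 31.0 with RIPK3 and 30.2 with RIPK4. No step between neighbours in its order exceeded counting error, although RIPK1, the lowest library, was 1.22-fold below Vector (1.12 to 1.34).

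GDF15, a secreted stress cytokine of the TGF-beta superfamily, had the widest range of the 9 genes. It stood at 9.90 RPKM in Vector (205 reads), 10.0 with Wnt3a (223), 6.36 with RIPK1 (149), 23.2 with RIPK2 (537), 24.6 with RIPK3 (564) and 15.9 with RIPK4 (349). RIPK2 and RIPK3 were high and alike within counting error, RIPK4 was between, and RIPK1 was low. The ratio to Vector was 2.34 with RIPK2 (1.99 to 2.76), 2.49 with RIPK3 (2.12 to 2.93) and 1.60 with RIPK4 (1.34 to 1.91), and GDF15 was 1.56-fold lower with RIPK1 (1.254 to 1.935). It was the 1 gene of the 9 that reached 2-fold on the log2(RPKM + 1) scale.

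To set the 9 genes beside the rest of the table, differences of log2(RPKM + 1) from Vector were counted over the genes that averaged 1 RPKM or more. The smaller threshold was a value of RPKM + 1 at least 25% higher, or by the same ratio at least 20% lower, and the larger was 2-fold in either direction. The addition of 1 makes low genes appear closer to Vector than their RPKM ratios are. All comparisons share the Vector library, so they are not independent of each other.

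With Wnt3a, BAX was the 1 gene at least 25% higher, against 24.9% of all genes, and MDM2, CCNG1 and FAS were at least 20% lower, against 21.5%. None of the 9 was 2-fold apart, as 2.1% of all genes were. The median difference of the 9 was 0.00, beside 0.04 over all genes tested. Ligand, time and any difference in plasmid cannot be told apart in this comparison.

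With RIPK1, 0 of the 9 genes were at least 25% higher and GDF15 was at least 20% lower, where the shares over all genes were 5.17% and 6.76%. None reached 2-fold (0.842% of all genes did). Still, 7 of the 9 lay below Vector, while 52.2% of all genes lay above it, and the median of the 9 was -0.20 beside 0.01. For 6 of the 7 the counting interval of the ratio excluded 1, the exception being SESN1. No share over all genes was taken for this count, so it cannot be read as particular to these genes.

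With RIPK2, CDKN1A and GDF15 were at least 25% higher (21.2% of all genes) and CCNG1 and SESN1 at least 20% lower (22% of all genes). GDF15 was 2-fold apart, as 2.29% of all genes were. The median of the 9 was -0.00 beside -0.01 over all genes, with members on both sides of Vector, from -0.76 for CCNG1 to 1.15 for GDF15.

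With RIPK3, CDKN1A, BBC3 and GDF15 were at least 25% higher (17.8% of all genes) and CCNG1 at least 20% lower (14.5% of all genes). GDF15 was 2-fold apart, beside 2.05% of all genes. The median of the 9 was 0.15 beside 0.02 over all genes. This library held the highest level of 5 of the 9 genes, namely CDKN1A, MDM2, BBC3, GDF15 and FAS, and the lowest of 0. RIPK3 stood above RIPK2 beyond counting error for 6 genes: SESN1, BBC3, CDKN1A, MDM2, CCNG1 and FAS, by 1.15-fold to 1.24-fold. No share over all genes was taken for either count, so neither can be read as particular to these genes.

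With RIPK4, CDKN1A, BBC3, BAX and GDF15 were at least 25% higher (21.3% of all genes) and FAS at least 20% lower (13.6% of all genes). None was 2-fold apart, where 0.783% of all genes were. The median of the 9 was -0.15 beside 0.05 over all genes, and its direction was not stable: it was 0.11 without FAS, which a filter at a mean of 5 RPKM removes, and 0.04 once the trend of all genes with GC content was subtracted. RIPK4 was neither the highest nor the lowest library for any of the 9, and no share over all genes was taken for this. The 4 genes that were higher made up the arrest gene CDKN1A, both BCL2-family genes and GDF15, and the 5 below Vector were MDM2, CCNG1, SESN1, FAS and TP53I3.

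The 9 genes fell into 2 sets by base composition, and so did most of their differences from Vector with Wnt3a, RIPK2 and RIPK4. CCNG1, SESN1, MDM2 and FAS have transcripts of 38.2% to 42.0% GC, below the median of 49.8% over all genes, and TP53I3, CDKN1A, BAX, GDF15 and BBC3 have 56.3% to 64.3%. With Wnt3a all 4 genes of low GC were below Vector (-0.53 to -0.28 on the log2 scale) and all 5 of high GC were at or above it (0.00 to 0.41). With RIPK4 all 4 of low GC were below and 4 of 5 of high GC above, the exception being TP53I3. The same held with RIPK2, where FAS was at -0.00. With RIPK3, 2 of the 4 of low GC were below and 4 of the 5 of high GC above. With RIPK1, 3 of the 4 were below and 1 of the 5 above. Across 11778 or 11779 genes, differences from Vector followed GC content with a Spearman rho of 0.698 for Wnt3a, 0.683 for RIPK4, 0.673 for RIPK2 and 0.553 for RIPK3, but -0.0861 for RIPK1. These are descriptions over genes that share 2 libraries.

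**Figure D2:**
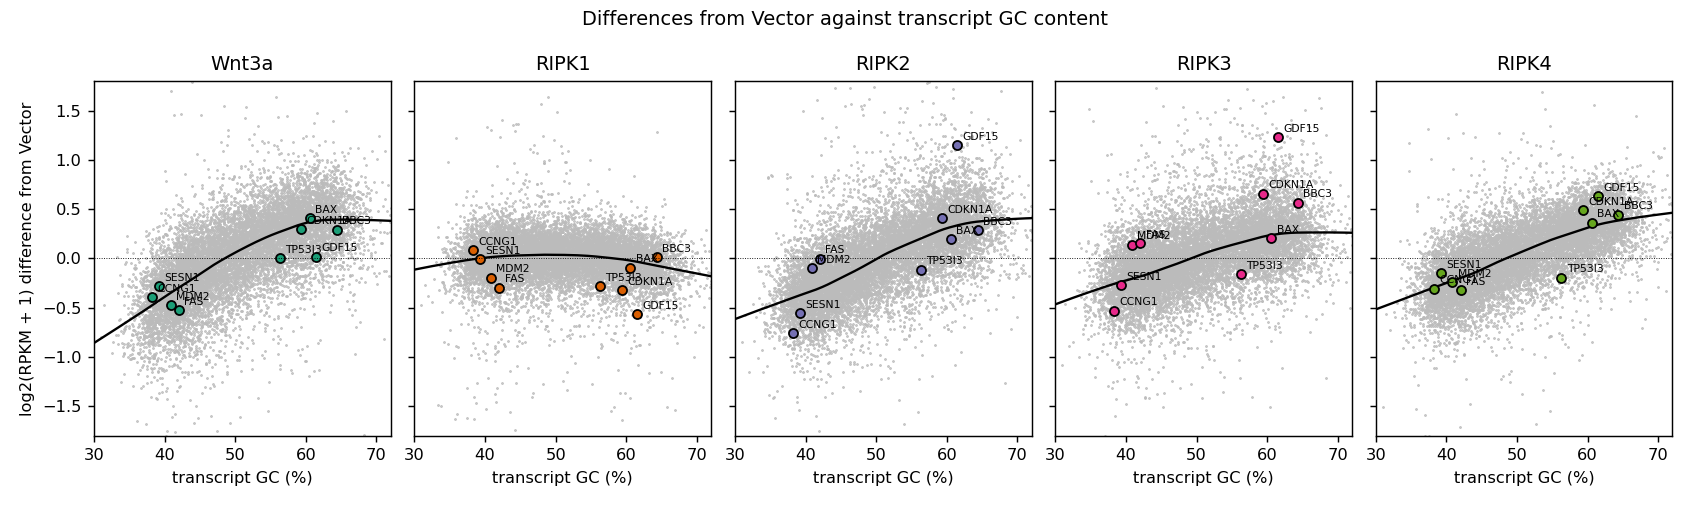
Difference from Vector in log2(RPKM + 1) (vertical axis, clipped so that the most extreme genes are not drawn) against median transcript GC content in percent (horizontal axis) for all genes averaging 1 RPKM or more (grey), with the lowess trend (line) and the 9 genes (coloured points). In the Wnt3a and RIPK4 panels most of the 9 points lie near the trend, with TP53I3 below it (-0.27 and -0.42) and GDF15 below it with Wnt3a (-0.36), and GDF15 lies above it with RIPK2 and RIPK3.

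When the GC trend was subtracted from plain RPKM ratios, without the added 1, 16 of the 45 ratios to Vector moved to the other side of 1. The values that follow are on the log2(RPKM + 1) scale, with its own trend subtracted. A gene near no difference can fall on either side. With Wnt3a, the 9 differences then ran from -0.36 (GDF15) to 0.14 (SESN1), and BAX went from 0.41 to 0.04. With RIPK4, 0 genes remained at least 25% higher: BAX was at 0.04, BBC3 at 0.06, CDKN1A at 0.19 and GDF15 at 0.29, and TP53I3, at -0.42, was the 1 gene at least 20% lower. With RIPK2, GDF15 (0.82) and CCNG1 (-0.36) were still past the smaller threshold and CDKN1A (0.11) and SESN1 (-0.18) were not. With RIPK3, GDF15 (0.99), CDKN1A (0.44), MDM2 (0.35) and FAS (0.34) were at least 25% higher, beside 12.5% of all genes after the same subtraction, and TP53I3 (-0.32) was at least 20% lower, beside 10.4%. BBC3 was at 0.30 and CCNG1 at -0.27, short of the threshold. The median of the 9 with RIPK3 was then 0.30. GDF15 no longer reached 2-fold with either RIPK2 or RIPK3. RIPK1 changed little, with a median of -0.21 and GDF15 at -0.53, CDKN1A at -0.31, FAS at -0.32, TP53I3 at -0.29 and MDM2 at -0.21. Over all genes after the same subtraction, 12.1% were at least 25% higher and 13.9% at least 20% lower with Wnt3a. These shares were 12.5% and 11.5% with RIPK2, 8.21% and 8.58% with RIPK4, and 4.58% and 6.71% with RIPK1. They and those for RIPK3 also apply to the counts of other lists below with the GC trend subtracted.

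**Figure D3:**
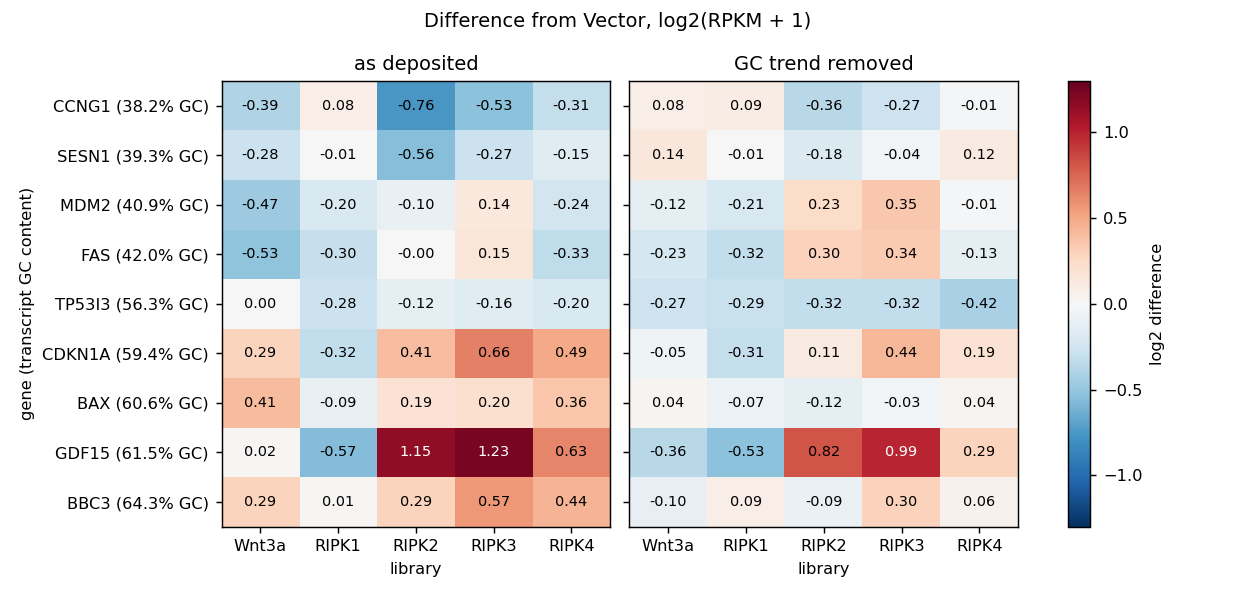
Difference from Vector in log2(RPKM + 1) for the 9 genes (rows, ordered by transcript GC content) in 5 libraries (columns), as deposited (left) and after subtraction of the GC trend (right); red is higher and blue lower than Vector. GDF15 with RIPK2 and RIPK3 remains the deepest red on the right (0.82 and 0.99), while the BAX row turns pale.

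MDM4, the partner of MDM2 that binds the activation domain of p53, stood between 4.16 and 5.10 RPKM, highest with RIPK2. TP63 and TP73, of the same family as p53, were listed at 0 to 0.0146 and 0.0235 to 0.111 RPKM. Of 19 genes kept in the list of the p53 network, which holds its kinases and ubiquitin ligases, 4 were at least 25% higher and 4 at least 20% lower with RIPK2 (21.2% and 22% of all genes), and 4 higher and 3 lower with RIPK3 (17.8% and 14.5%). With the GC trend subtracted they were 6 and 1 with RIPK2 and 4 and 1 with RIPK3. CHEK2, a DNA-damage kinase that phosphorylates p53, was 1.77-fold lower with RIPK2 and 1.73-fold lower with RIPK3, at 9.52 and 9.74 against 16.8 RPKM. HUWE1, a large ubiquitin ligase with p53 among its substrates, stood at 23.1 RPKM in Vector and at 32.1 to 37.6 in the 5 other libraries, which are all set against that 1 library.

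A wider list of 69 other p53 targets in the table kept 63 genes. Its medians were -0.03 with Wnt3a, -0.12 with RIPK1, 0.06 with RIPK2, 0.12 with RIPK3 and -0.01 with RIPK4, so RIPK1 was lowest and RIPK3 highest, as for the medians of the 9 genes. With RIPK3, 14 of the 63 were at least 25% higher and 7 at least 20% lower, and with RIPK1, 4 were higher and 13 lower. With RIPK2 the counts were 15 and 16, with RIPK4 16 and 10, and with Wnt3a 15 and 17. Over all genes the shares higher and lower were 17.8% and 14.5% with RIPK3, 5.17% and 6.76% with RIPK1, 21.2% and 22% with RIPK2, 21.3% and 13.6% with RIPK4, and 24.9% and 21.5% with Wnt3a. After subtraction of the GC trend the counts of the 63 were 11 and 2 with RIPK3, 3 and 14 with RIPK1, 6 and 5 with RIPK2, 4 and 5 with RIPK4, and 7 and 12 with Wnt3a. Over all genes the shares were then 12.5% and 10.4% with RIPK3, 4.58% and 6.71% with RIPK1, and 12.5% and 11.5% with RIPK2. They were 8.21% and 8.58% with RIPK4, and 12.1% and 13.9% with Wnt3a.

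**Figure D4:**
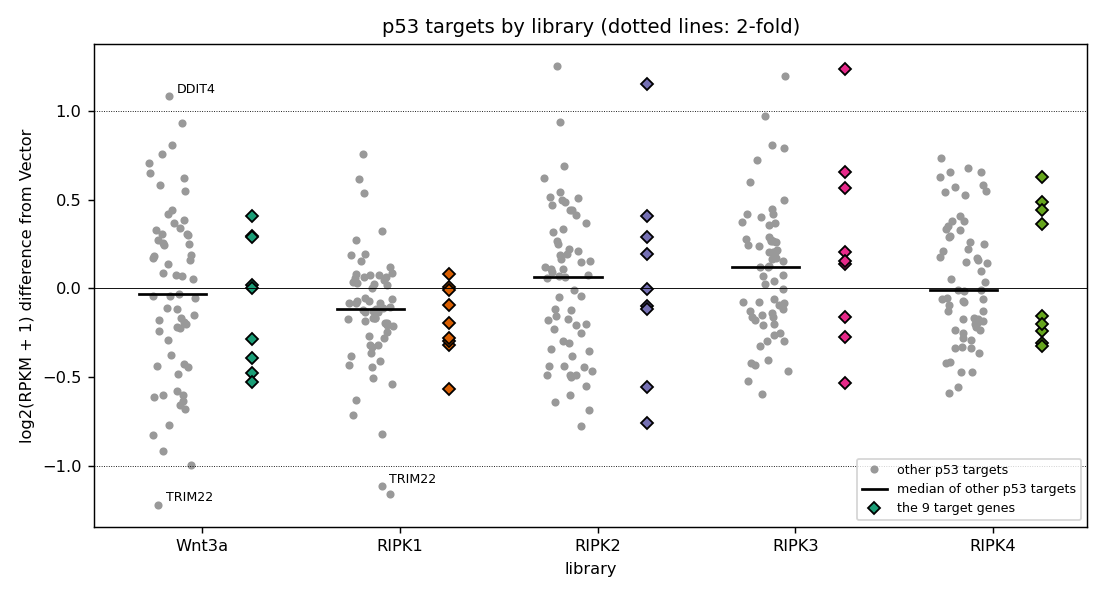
Difference from Vector in log2(RPKM + 1) for 63 other p53 targets (grey, with their median as a black line) and the 9 genes (diamonds) in each library, with dotted lines at 2-fold. TRIM22 and DDIT4 are labelled where they are past 2-fold, and the medians lie between -0.12 with RIPK1 and 0.12 with RIPK3.

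Among targets for arrest and growth control, NINJ1, a membrane-rupture protein, was 1.71-fold higher with RIPK4 (1.49 to 1.95), and SFN, the 14-3-3 sigma protein that holds cells in G2, was 1.86-fold higher with Wnt3a (1.52 to 2.28). Of 13 such genes, 3 were at least 25% higher and 0 at least 20% lower with RIPK3 (17.8% and 14.5% of all genes). With RIPK1, 0 were higher and 3 lower (5.17% and 6.76% of all genes). With the GC trend subtracted the counts became 2 and 0 with RIPK3, and 0 and 3 with RIPK1. Among 13 cell death targets, PMAIP1 (NOXA), a BCL2-family gene like BBC3, stood at 6.58 RPKM in Vector, 3.03 with Wnt3a, 3.63 with RIPK1, 8.45 with RIPK2, 8.81 with RIPK3 and 4.16 with RIPK4. RIPK2 and RIPK3 were thus above Vector for PMAIP1 and the other 3 libraries below it, whereas BBC3 and BAX were above it with Wnt3a and RIPK4 too. PERP, a desmosomal death effector, was lower than Vector in all 5 libraries, at 6.74 to 11.3 against 12.7 RPKM. With the GC trend subtracted PERP was at -0.01 with RIPK2, 0.04 with RIPK3, -0.49 with Wnt3a, -0.33 with RIPK1 and -0.20 with RIPK4. Over these 13, 4 were at least 20% lower and 0 higher with Wnt3a, with or without the GC trend. Of all genes, 21.5% were lower and 24.9% higher as deposited, and 13.9% and 12.1% with the trend subtracted.

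Of 12 targets for metabolism, redox control and autophagy, 6 were at least 25% higher and 0 at least 20% lower with RIPK4, beside 21.3% and 13.6% of all genes, and these counts became 1 and 1 with the GC trend subtracted. DDIT4, an inhibitor of mTORC1, was 2.20-fold higher with Wnt3a (1.96 to 2.48) and 2.04-fold with RIPK3 (1.81 to 2.29). SESN3, a sestrin like SESN1, was 2.07-fold higher with RIPK1 (1.59 to 2.71), where SESN1 lay at 25.4 against 25.6 RPKM. Of 9 DNA repair targets, 4 were at least 20% lower (22% of all genes) and 0 at least 25% higher (21.2%) with RIPK2. Among the 4 were the translesion polymerase gene POLK (2.13 against 3.01 RPKM) and RRM2B, which supplies nucleotides for repair (10.1 against 14.5 RPKM). With the GC trend subtracted 0 of the 9 were lower and 1 higher, and POLK went from -0.35 to 0.06. Of 16 remaining targets, 4 were at least 25% higher and 5 at least 20% lower with RIPK2 (21.2% and 22% of all genes). With RIPK1, 1 was higher and 5 lower (5.17% and 6.76% of all genes). With the GC trend subtracted the counts were 3 and 2 with RIPK2, and 1 and 5 with RIPK1. TRIM22, which interferon raises as well, was 2.39-fold lower with Wnt3a and 2.22-fold lower with RIPK1.

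Lists of other pathways that can act on some of these genes were also counted. Of 12 targets of the integrated stress response, 10 were at least 25% higher with RIPK2 (21.2% of all genes) and 10 with RIPK3 (17.8%), where GDF15 was high, 5 with RIPK4 (21.3%), 5 with Wnt3a (24.9%) and 1 with RIPK1 (5.17%). With the GC trend subtracted the counts were 6 with RIPK2, 6 with RIPK3, 4 with RIPK4, 3 with Wnt3a and 1 with RIPK1. TRIB3, a pseudokinase of that response, stood at 6.83 RPKM with RIPK2 and 5.56 with RIPK3 against 2.28 in Vector. TGF-beta targets had medians of 0.70 with RIPK2, 0.64 with RIPK3, -0.36 with RIPK1, -0.09 with Wnt3a and -0.03 with RIPK4. With the GC trend subtracted these were 0.60, 0.64, -0.37, -0.34 and -0.24. Interferon-stimulated genes, which include XAF1, an antagonist of the caspase inhibitor XIAP, had medians of 0.74 with RIPK2, 0.92 with RIPK3, -2.02 with RIPK1, -0.70 with Wnt3a and -0.07 with RIPK4. All 17 interferon-stimulated genes kept were at least 20% lower with RIPK1 (6.76% of all genes), and 11 were with Wnt3a (21.5% of all genes). With the GC trend subtracted, 17 were lower with RIPK1 (6.71% of all genes) and 15 with Wnt3a (13.9%). The medians of the 9 genes were also highest with RIPK3 (0.15) and lowest with RIPK1 (-0.195). Between these they were 0.00 with Wnt3a, -0.00 with RIPK2 and -0.15 with RIPK4. The medians of the 63 other p53 targets had the library order of the interferon-stimulated genes. DDIT4 stands both among the other p53 targets and in the stress response list, and these lists share further genes. The part of these pathways in the levels of the 9 genes was not tested.

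Genes downstream of p21 were described with CDKN1A, since p21 represses cell-cycle genes through the DREAM complex. Of 15 such genes, 5 were at least 20% lower and 1 at least 25% higher with RIPK2, and 2 lower and 1 higher with RIPK3, with medians of -0.17 and -0.18. Over all genes 22% were lower and 21.2% higher with RIPK2, and 14.5% lower and 17.8% higher with RIPK3. With the GC trend subtracted the counts were 0 lower and 0 higher with RIPK2 and 1 lower and 0 higher with RIPK3, and the medians -0.12 and -0.13. With RIPK1, where CDKN1A was lowest, the median was 0.05 and 0 genes passed in either direction. Over all genes only 5.17% were higher and 6.76% lower with RIPK1, so 0 of 15 lies near those shares. CDK1, the mitotic kinase, was 2.07-fold lower with Wnt3a, at 17.6 against 36.4 RPKM, and stood at 21.2 and 23.9 RPKM with RIPK2 and RIPK3. Of 16 CDK partners and inhibitors, CDK1 among them, 6 were at least 20% lower and 3 at least 25% higher with RIPK2. Over all genes these shares were 22% and 21.2%. The counts were 5 and 3 with RIPK3 (14.5% and 17.8% of all genes), and 5 and 3 with Wnt3a (21.5% and 24.9%). With the GC trend subtracted the counts were 4 and 0 with RIPK2, 4 and 1 with RIPK3, and 6 and 0 with Wnt3a. The shares lower over all genes were then 11.5%, 10.4% and 13.9%, and the shares higher 12.5%, 12.5% and 12.1%. The G1/S cyclin gene CCNE2 was lower than Vector in all 5 libraries, at 1.65 to 3.004 against 4.24 RPKM. MCM5, a subunit of the replicative helicase, went the other way, at 55.3 RPKM with RIPK2 against 38.8.

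For the 3 genes of the 9 with the widest ranges, the protein-coding genes with the most similar profile over the 6 libraries were found by the root mean square difference of log2(RPKM + 1) after centring each gene. For CDKN1A these were PHLDA3 (0.0672), itself a p53 target that inhibits AKT, then MBOAT7 (0.0700) and GRINA (0.0827). PHLDA3 stood at 13.01 RPKM in Vector, 16.7 with Wnt3a, 9.91 with RIPK1, 18.1 with RIPK2, 20.2 with RIPK3 and 16.7 with RIPK4. For GDF15 they were SPRY4, a feedback inhibitor of receptor tyrosine kinase signalling (0.150), SLC15A3 (0.151) and PHLDA2 (0.165), and for CCNG1 they were KLHL7 (0.0408), TTC9 (0.0460) and SCML2 (0.0475). With 6 libraries and 11380 candidate genes such likeness is a description, and the genes nearest to CDKN1A have 60.7% to 63.6% GC, close to its 59.4%.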

How the data were processed

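The deposited table holds the authors' RPKM values, with a column per library, per the file headers. GSNAP, DESeq and hg19 appear in the submitters' processing notes without role or version. Annotation, counting rule and strand are not given in those sources. RPKM was used as deposited. Groups came from the transfection labels, and columns were matched to samples by title.

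Whole reads were recovered by finding library totals and a length of 15 to 30000 bases at which all 6 values of a gene are whole reads within the rounding of 5 printed digits. This solved all 9 genes and 88.2% of the table, and was tested on simulated data. Intervals cover counting error only, because PCR copies are not told apart.

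Differences used log2(RPKM + 1) and a mean of 1 RPKM or more. With 1 library a group no test across genes was possible. GC content is the median over GENCODE 29 transcripts (99.1% of genes kept), and its trend a lowess fit (fraction 0.3, statsmodels 0.14.6). Promoter sequences are from RefSeq GRCh38.p14, matched by symbol, and no coordinate was taken from hg19. Genes were named by rule: the 9 genes, MDM4, TP63 and TP73, list members at least 2-fold apart or the 2 of each list with the largest differences, and the 3 nearest profiles. Not every gene so taken is printed, and 2 genes are not reported here. FASLG and the marker genes were named outside it, after their values were seen. The 9 genes, 12 gene lists and 6 marker lists were chosen with earlier results of these data known. The alternatives tried were a pseudocount of 0.1, no filter, a mean of at least 5 RPKM, rescaling by median ratios, removal of the GC trend, and the mean of the other 5 libraries as reference.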

Additional observations from a re-analysis of the deposited data

How the results depend on the processing

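Dropping the filter on low values changed none of the 20 summaries of the 9 genes (a median and 3 counts in each of 5 comparisons), since all 9 pass it. With a pseudocount of 0.1, 2 genes were at least 25% higher with Wnt3a and 3 at least 20% lower with RIPK1. With rescaling by median ratios, 3 were lower with RIPK1 and 2 with RIPK4. With a mean of at least 5 RPKM, FAS dropped out, the RIPK4 median became 0.1056 and 0 genes were lower. After removal of the GC trend, 0 genes were higher and 1 lower with Wnt3a, 1 higher and 1 lower with RIPK2, and 0 higher with RIPK4; 0 were 2-fold apart with RIPK2 or RIPK3, and the medians were 0.3042 with RIPK3 and 0.03883 with RIPK4. Taken on plain RPKM ratios, without the added 1, it also put 16 of the 45 ratios to Vector on the other side of 1. Of these, 13 had a counting interval that had excluded 1. Rescaling did so for 4, 0 of them with such an interval, and the mean of the other 5 libraries for 8, 3 of them with one. Of the 16 under the GC setting, 5 had been at least 25% higher or 20% lower as plain RPKM ratios. CCNG1 with Wnt3a moved to 1.111, and BBC3 to 0.9135 with Wnt3a and 0.9254 with RIPK2. BAX moved to 0.9899 with Wnt3a and 0.9934 with RIPK4. With the added 1, BBC3 had been short of the smaller threshold in both of its libraries. Against the mean of the other 5 libraries, 0 genes were higher with Wnt3a, 1 higher, 3 lower and 1 2-fold apart with RIPK1, and 1 higher and 0 2-fold apart with RIPK2. There, RIPK3 had a median of 0.3419 with 5 higher, 0 lower and 0 2-fold apart, and RIPK4 a median of 0.07246 with 0 higher and 0 lower. The causes were not tested. GDF15 with 149 reads in its lowest library and FAS with 213 had the fewest reads. No paired analysis was possible because each group holds 1 library.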

Other observations

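Partners of the pro-apoptotic genes were also measured. Of 15 BCL2-family and death receptor genes kept, 6 were at least 25% higher and 1 at least 20% lower with RIPK3. Over all genes these shares were 17.8% and 14.5%. With RIPK2, 5 were higher and 1 lower (21.2% and 22% of all genes). Both pairs of counts became 4 and 1 with the GC trend subtracted. The shares were then 12.5% and 10.4% with RIPK3, and 12.5% and 11.5% with RIPK2. BMF, a BH3-only gene like BBC3, stood at 0.925 RPKM in Vector, 2.63 with Wnt3a, 1.58 with RIPK1, 3.13 with RIPK2, 3.52 with RIPK3 and 2.04 with RIPK4, so Vector was lowest. MCL1, an anti-apoptotic gene that BBC3 opposes, was 137.55 RPKM in Vector and lower in the 5 other libraries, at 69.7 with Wnt3a and 98.4 to 113.06 with the kinases.

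Ratios within a library were taken only for the selected pairs BAX with CCNG1 and CDKN1A with MDM2. Both put Vector and RIPK1 apart from the rest. Ratios of other pairs were not computed, so the pattern cannot be read as general to these genes. BAX per CCNG1 in RPKM was 0.604 in Vector and 0.533 with RIPK1, and between 0.965 and 1.18 in the 4 other libraries. CDKN1A per MDM2 was 0.515 and 0.466, and between 0.746 and 0.901 in the others. Both ratios set a gene of high GC over one of low GC, and the GC trend lies along the same libraries.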
